A study of Danio rerio with 4 samples.

Results

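The GATA transcription factor genes of the zebrafish were compared between green and non-green cells of the embryo. All 7 genes named gata1a, gata2a, gata2b, gata3, gata4, gata5 and gata6 were taken by name, out of 31716 genes in the expression table, and all 7 had a row. GATA factors bind the DNA word for which they are named through zinc fingers. gata1a is required for red blood cells. gata2a and gata2b act in blood and vessel precursors, and gata2a and gata3 also in neurons, non-neural ectoderm and the ear. gata4, gata5 and gata6 act in the heart and in the endoderm, the layer that forms gut and liver.

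RNA was measured by sequencing in embryos of the Tg(fli1a:egfp) strain at 24 hours post fertilization. Regulatory sequence of fli1a drives the green fluorescent protein (GFP) in this strain, and all groups carry the transgene. After dissociation and fixation the cells were sorted by their GFP. The labels call the GFP-positive cells endothelial (vessel-lining) and the GFP-negative cells non-endothelial, and each fraction gave 2 libraries from total RNA. The table gives 1 FPKM value per gene and fraction (fragments per kilobase of transcript, scaled by library size), so no spread between libraries can be shown, and no label says if the libraries came from separate clutches; the p-values below refer to these libraries alone.

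Transcripts of red cells as well as of vessel cells were higher in the GFP-positive fraction. Of 18 tested endothelial genes, 11 were called higher in it at the authors' deposited q under 0.05 and 0 lower. Of 27 tested erythroid (red cell) genes, 24 were called higher and 0 lower. Summed over all 30 erythroid rows, the level was 92112 FPKM in GFP-positive cells and 1239 in the rest, of which 7 globin rows gave 88604 and 1107 FPKM. The other 23 erythroid rows summed to 3508 and 132 FPKM, and the 21 endothelial rows to 2029 and 53.6 FPKM. Of 14 tested neural and muscle genes, 10 were called lower in GFP-positive cells and 0 higher. In these lists, also 0 genes went the other way at an unadjusted p under 0.05 in Cuffdiff's test. The sort gene fli1a stood at 187 FPKM against 4.71 FPKM, which describes the sort.

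Of the 7 GATA genes, gata1a and gata2a were called higher in GFP-positive cells and none was called lower, while gata2b, gata3, gata4, gata5 and gata6 had no test because Cuffdiff set them aside for too few alignments. Among all 7299 tested genes, 14.3% were called, 7.18% higher and 7.15% lower. A gene enters the test through the fraction in which it is high, so the count of 2 among the tested members is a description and no support for a family pattern. In bulk samples such as these, fewer cells of a type and less RNA per cell cannot be told apart.

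**Figure D1:**
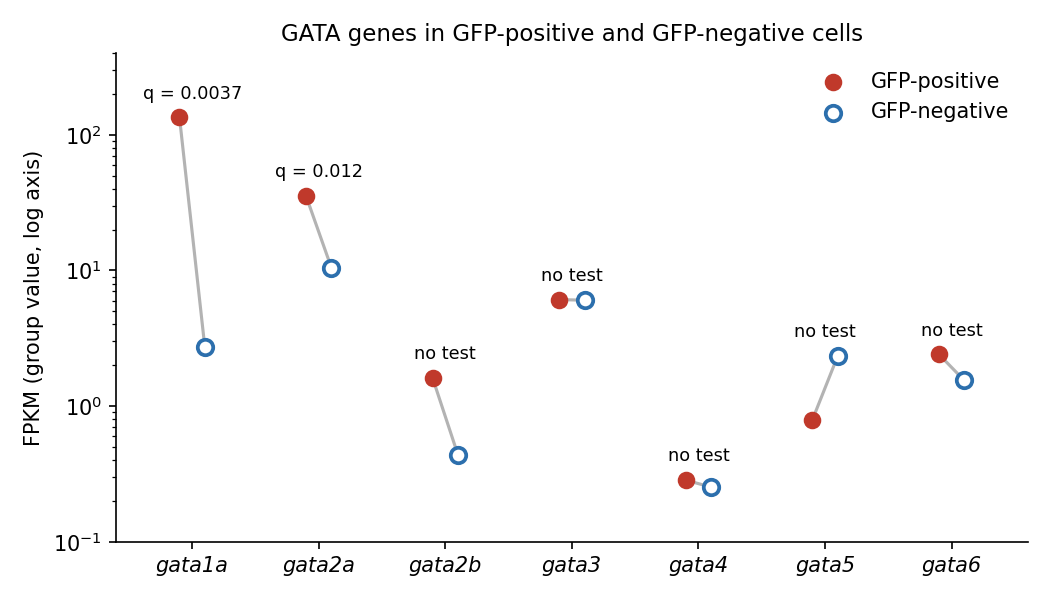
FPKM of each GATA gene (log axis) in GFP-positive cells (filled) and GFP-negative cells (open), 1 group value each, with the authors' deposited q where a test was made. The gap is widest for gata1a (134 against 2.73 FPKM), the markers of gata3 stand at the same height, and gata5 is the gene with the larger value in GFP-negative cells.

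The erythroid factor gene gata1a (ENSDARG00000013477) lies on chromosome 11, from 26344511 to 26352415 in Zv9, and shares that locus with no other gene of the table. Its level was 134 FPKM in GFP-positive cells, compared with 2.73 FPKM in the GFP-negative fraction. The GFP-negative level was thus 2.03% of the GFP-positive one. In the authors' deposited table this 49.2-fold difference (5.62 on the log2 scale) had p = 0.00025 and q = 0.00374. The log2 ratio divided by the deposited test statistic (4.82) came to 1.17. This is not read as a standard error. The file does not state how the statistic was formed, and the deposited p is not what a normal distribution gives for it. In GFP-positive cells gata1a ranked 606th of the 31716 genes by FPKM, and in GFP-negative cells 10867th. By log2 ratio it stood above 97.9% of tested genes and was 71st among the 524 genes called higher.

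gata2a (ENSDARG00000059327) is on the same chromosome, from 3909991 to 3922643, again alone in its locus. Its level was 35.4 FPKM with GFP and 10.5 FPKM without it. The authors' deposited table gives a 3.37-fold difference (1.75 on the log2 scale) with p = 0.00115 and q = 0.0124. This call does not hold at a q of 0.01, at which gata1a alone passes. The log2 ratio over the test statistic (2.38) was 0.74, which for the same reasons is not read as a standard error. By ratio gata2a stood above 92.0% of tested genes and was 366th among those called higher, while by level it ranked 2168th in GFP-positive and 5509th in GFP-negative cells.

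Its paralogue gata2b (ENSDARG00000009094; chromosome 6, 40724878 to 40750630) was low in both fractions, at 1.61 FPKM with GFP and 0.438 FPKM without it. The ratio of these values was 3.68, with no test. It was close to that of gata2a, at a far lower level, and the gata2a level was 21.9 times the gata2b level in GFP-positive cells and 23.9 times in GFP-negative cells. With 1 FPKM added to each value, the log2 ratio of gata2b fell from 1.88 to 0.86. A second row, si:ch211-157b11.6, shares the gata2b locus and is listed at 0 in both fractions, so how reads were divided there cannot be seen.

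gata3 (ENSDARG00000016526; chromosome 4, 24139959 to 24151643) was nearly level, at 6.10 FPKM with GFP and 6.04 FPKM without it. The log2 ratio was 0.01, and no test was made. The level lies where tests become rare. Of 1594 genes whose higher value was within 1.2-fold of that of gata3, 46 were tested, which is 2.89%. The missing test therefore does not show that the fractions are alike for gata3. Making the FPKM sums of the fractions equal lowers the log2 ratio of every gene by 0.27, and that of gata3 to -0.25.

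The 3 heart and endoderm members were low in both fractions. The gene IDs of gata4 and gata6 are absent from the reference of gene names used here, so both rest on the deposited names alone. gata6 (ENSDARG00000035831, on scaffold Zv9_scaffold3540 from 161586 to 175324) had 2.41 against 1.55 FPKM, GFP-positive value first. gata5 (ENSDARG00000017821; chromosome 23, 7453292 to 7464593) was the one member with the larger value in GFP-negative cells, at 0.792 against 2.33 FPKM, a ratio of 2.95 in that direction with no test. gata4 (ENSDARG00000035759, chromosome 20, 53578322 to 53602069) was the lowest of the 7 members, at 0.285 against 0.253 FPKM. Its log2 ratio was 0.17. With equal FPKM sums it was -0.09, and under the other 4 scales tried it stayed above 0, from 0.04 to 0.16. The 3 genes summed to 3.49 FPKM with GFP and 4.14 FPKM without it. Within the sum the leading gene differed: gata6 gave 69.1% in GFP-positive cells and gata5 56.4% in GFP-negative cells. Of the 3842 genes with a higher value from 1 to below 3 FPKM, as for gata2b, gata5 and gata6, 0 were tested, so no gene at such a level could be called.

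The order of the family by level differed between the fractions. In GFP-positive cells the order was gata1a, gata2a, gata3, gata6, gata2b, gata5 and gata4. In GFP-negative cells it was gata2a, gata3, gata1a, gata5, gata6, gata2b and gata4. FPKM is scaled by transcript length, so levels can be set side by side between genes of a fraction, but with 1 value per fraction no spread tells which neighbours in either order differ. The gata1a level was 3.80 times that of gata2a in GFP-positive cells, and the gata2a level 3.84 times that of gata1a in GFP-negative cells. Likewise gata6 was 3.05 times gata5 in GFP-positive cells, and gata5 was 1.51 times gata6 in GFP-negative cells.

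The family total, over the 7 members, was 181 FPKM with GFP and 23.8 FPKM without it. gata1a gave 74.3% of it in GFP-positive cells and 11.5% in GFP-negative cells. gata2a gave 19.5% and 44.0%, and gata3 gave 3.37% and 25.3%. The 5 genes without a test together held 11.2 FPKM with GFP and 10.6 FPKM without it, so the gap between the totals comes from gata1a and gata2a. Without gata1a the totals were 46.6 and 21.1 FPKM, and gata2a was then 75.9% of the GFP-positive total and 49.7% of the GFP-negative one.

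**Figure D2:**
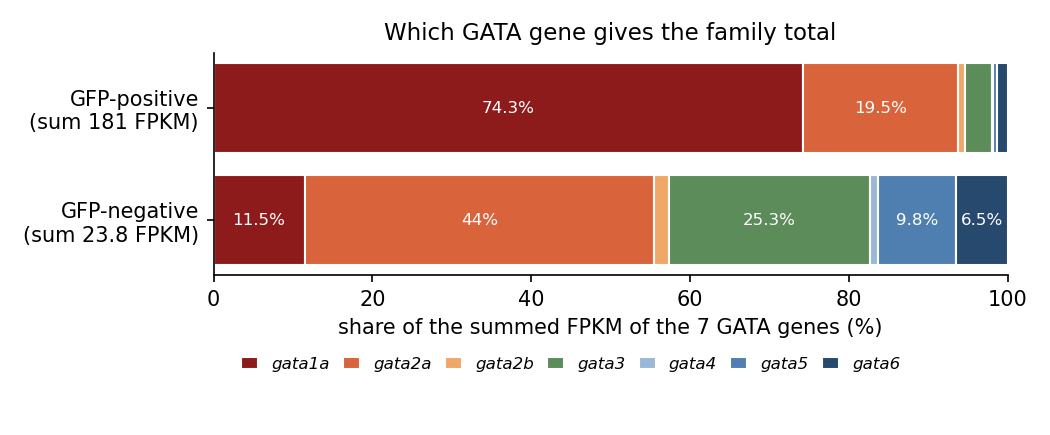
Share of the summed FPKM of the 7 GATA genes (%) held by each gene, in GFP-positive cells (upper bar, sum 181 FPKM) and GFP-negative cells (lower bar, sum 23.8 FPKM). gata1a fills 74.3% of the upper bar and 11.5% of the lower, where gata2a (44.0%) and gata3 (25.3%) take the larger parts.

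Among all genes, gata1a and gata2a lie above the line of equal level. gata3, itself without a test, lies on that line at the lower edge of the tested genes. The other members lie deeper among the untested genes. The 3 tested genes nearest to gata1a, by distance in log2(FPKM + 1) over the 2 fractions, were tfr1a (139 against 2.61 FPKM, distance 0.067), hdr (120.1 against 2.59 FPKM, distance 0.171) and si:dkey-25o16.2 (124 against 2.09 FPKM, distance 0.297). Of these, tfr1a and si:dkey-25o16.2, which the reference of gene names calls hemgn, are in the erythroid list. Nearest to gata2a were apg3l (34.0 against 10.8 FPKM, distance 0.064), elovl1b (33.1 against 10.4 FPKM, distance 0.093) and sgms1 (37.1 against 11.3 FPKM, distance 0.118), none of them in a list. Likeness over 2 values says only that the levels are alike.

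**Figure D3:**
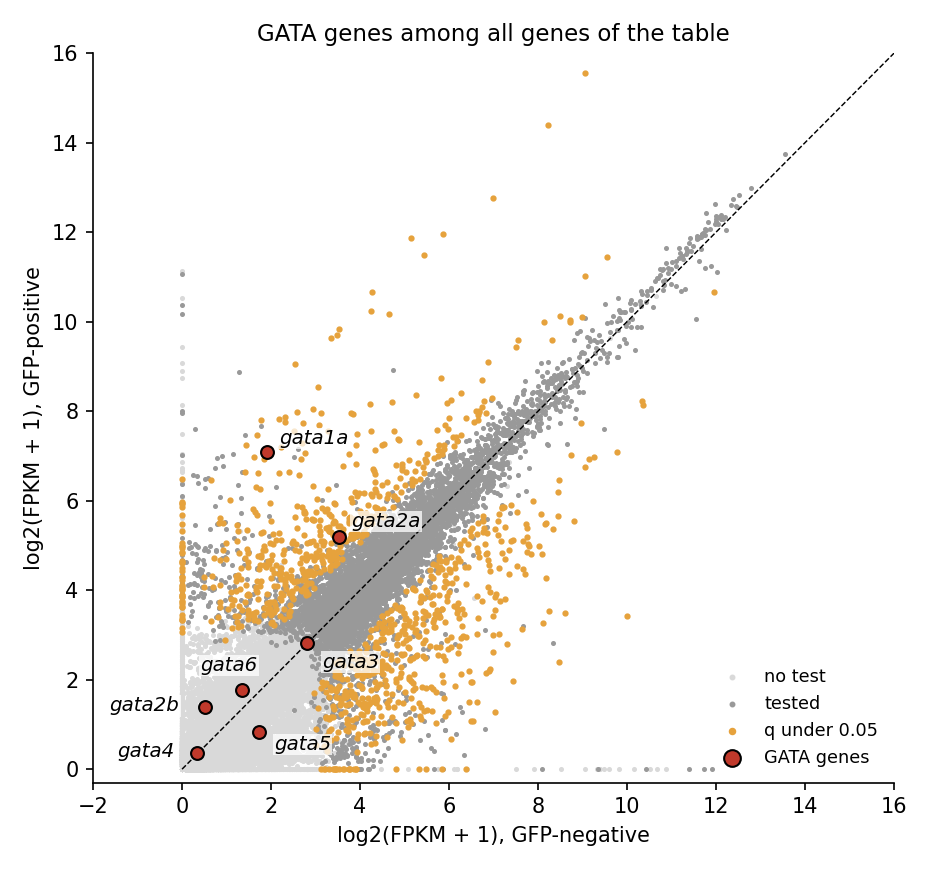
log2(FPKM + 1) in GFP-positive cells against GFP-negative cells for all genes, with the 7 GATA genes labelled and the dashed line marking equal levels. gata1a (134 against 2.73 FPKM) and gata2a (35.4 against 10.5 FPKM) lie above the line among called genes. gata3, which had no test, lies on the line where tests are rare, and the other 4 lie in the region without tests.

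The genes next to the members on the chromosome were mostly low or alike in the fractions, and 3 of 14 had a test. Beside gata1a, adnpa at 2056 bases had 0.222 and 0.144 FPKM in GFP-positive and GFP-negative cells, and si:dkey-13a21.4 at 11994 bases was listed at 0 in both fractions. Beside gata2a, rpn1 at 32710 bases had 141 against 128 FPKM and was not called (q = 0.904 in the authors' deposited table). Beside gata2b, eefsec at 2820 bases had 6.67 against 2.29 FPKM and no test, with the larger value in GFP-positive cells as for gata2b. Beside gata3, taf3 at 19717 bases had 19.8 against 18.3 FPKM (q = 0.927). Of the 14 nearest neighbours, 1 was called, MIB1 (1 of 2) at 46031 bases from gata6, which was lower in GFP-positive cells with 23.9 against 59.8 FPKM (q = 0.0151).

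The partners of GATA factors were described from a list of cofactors and complex members, in which 18 of 26 rows were tested. Of these, 8 were called higher in GFP-positive cells, 0 lower (also 0 at an unadjusted p under 0.05 in Cuffdiff's test) and 10 did not pass. One of the 8 is fli1a, whose regulatory sequence drives the sorted transgene, so its difference describes the sort. Without it, 7 of 17 tested rows were called higher, where 7.18% of all tested genes were. The median of log2((FPKM + 1) ratio) was then 3.32 over the tested rows, beside 0.05 over all tested genes. Over all 25 rows it was 1.40, beside 0 over all 31716 genes. Rows enter the test through the fraction in which they are high, and the added 1 FPKM draws the ratios of low rows towards 0. The part of either in the gap between 3.32 and 1.40 was not tested. The list was chosen with earlier results of these data known, so its counts and medians are a description. Still among the 7 is fli1b (44.2 against 0.769 FPKM). lmo2 and tal1, whose proteins form a DNA-binding complex with Gata1 in blood cells, had 97.7 against 2.27 FPKM and 93.7 against 5.22 FPKM (q = 0.000958 for each). The linker of that complex, ldb1a, had 43.2 against 62.5 FPKM and did not pass (q = 0.462), nor did its E-protein partners tcf12 (55.8 against 75.4 FPKM, q = 0.628) and tcf3b (31.1 against 33.4 FPKM, q = 0.933). The repressor gene gfi1b, active in erythroid cells, had 18.6 against 0.397 FPKM (q = 0.0137). The Runx cofactor gene cbfb had 36.8 against 5.72 FPKM (q = 0.000958).

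The direct cofactor of Gata1, zfpm1 (also called Fog1), had 3.86 against 0.845 FPKM and no test, and zfpm2a and zfpm2b, relatives that act with Gata4 to Gata6 in mammals, were under 1 FPKM in both fractions. Other cofactors had large ratios and did not pass. The erythroid factors klf17 (106 against 0.662 FPKM, q = 0.311) and klf1 (27.2 against 0.247 FPKM, q = 0.562), and the myeloid factor spi1b (43.0 against 0.232 FPKM, q = 0.115), were under 1 FPKM in GFP-negative cells. Across the table, of 96 tested genes with at least a 16-fold higher value in GFP-positive cells and a GFP-negative value above 0 but under 1 FPKM, 14 were called, which is 14.6%. By level, 2 of 55 were called under 0.5 FPKM, as for klf1 and spi1b, and 12 of 41 from 0.5 to below 1 FPKM, as for klf17. From 1 to below 2 FPKM, 9 of 24 were called. With a GFP-negative value of at least 2 FPKM, as for gata1a, 47 of 53 were called. A missing call on such a cofactor therefore does not set it apart from gata1a. Among 6 tested genes with other GATA-type zinc fingers, gatad1, gatad2ab, gatad2b, rerea, mta2 and mta3, 0 were called in either direction by the authors' Cuffdiff test, and also 0 at an unadjusted p under 0.05.

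The fold of gata1a lay within the range of both the erythroid and the endothelial genes called higher. Of the 24 erythroid genes called higher, 13 had a larger fold than gata1a, and their folds ran from 11.8 to 108 with a median of 52.3. The heme synthesis gene alas2, a known Gata1 target in mammals, had 98.1 against 1.67 FPKM, and the red cell anion exchanger gene slc4a1a had 1211 against 18.1 FPKM (q = 0.000958 for each). gata2a had a smaller fold than each of the 24, and also than each of the 10 endothelial genes called higher with a value above 0 in both fractions, whose folds ran from 10.9 to 154 with a median of 33.9. Of these 10, 4 had a larger fold than gata1a. The comparison covers called genes only, and a call favours a large fold. Among tested genes of the lists that were not called, nt5c3a (erythroid, 54.0 against 35.1 FPKM) and robo4 (endothelial, 8.53 against 12.5 FPKM) had smaller folds than gata2a. The other tested genes not called had larger ones. Among the endothelial genes kdrl, a receptor for vascular endothelial growth factor, had 52.4 against 2.13 FPKM, and the junction gene cdh5 had 87.3 against 0.567 FPKM. The part of red cells and of endothelial cells in the gata1a and gata2a differences was not tested. In the authors' values, with 1 per fraction, 29 of 30 erythroid rows and 20 of 21 endothelial rows were larger in GFP-positive cells, as were gata1a and gata2a. Listed at 0 in GFP-negative cells were 2 erythroid rows and 1 endothelial row (lyve1b). The erythroid row slc25a38a was at 0 in both fractions.

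**Figure D4:**
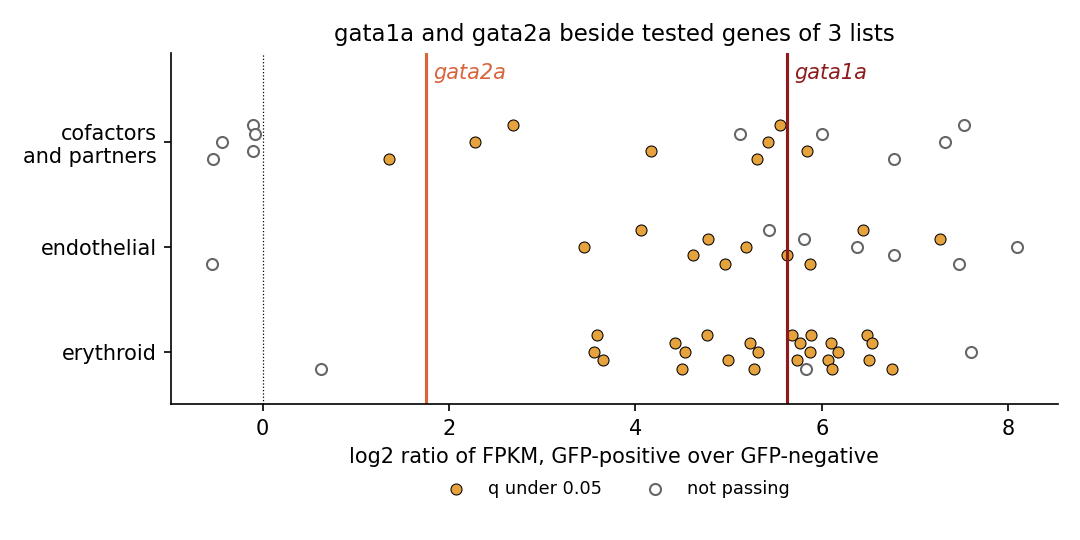
log2 ratio of FPKM (GFP-positive over GFP-negative) of tested genes in the erythroid, endothelial and cofactor lists, with values above 0 in both fractions; filled points have a q under 0.05, and vertical offsets only separate points. The gata1a line (5.62) runs through the called points of both the erythroid and the endothelial list, and the gata2a line (1.75) lies left of every called erythroid and endothelial gene.

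Other settings in which gata2a, gata2b and gata3 are known were read through their own lists. Of 6 tested blood stem cell and hemogenic endothelium genes, 2 were called higher (lmo2 and tal1) and 1 lower (meis4.1a, 31.9 against 112 FPKM). Both lmo2 and tal1 were also counted among the cofactors. The 3 others did not pass, and each had more FPKM with GFP than without it. ikzf1 had 29.7 against 0.440 FPKM (q = 0.543) and ptprc 9.71 against 0.148 FPKM (q = 0.561). mecom had 15.2 against 7.56 FPKM (q = 0.0984). At GFP-negative levels as low as those of ikzf1 and ptprc, calls were rare, as for klf1 and spi1b. The factor gene runx1, which acts with Gata2b in hemogenic endothelium, had 1.001 FPKM with GFP, was listed at 0 without it and had no test. Of 5 tested genes of the spinal and serotonergic neurons that use gata2a and gata3, tal1 was called higher and ascl1a and sst1.1 lower. In that list 17 of 20 rows had the larger value in GFP-negative cells. The other 3 were tal1, fev (11.7 against 4.02 FPKM, not passing) and slc6a4a (5.75 against 0.694 FPKM, no test). gata2a itself stood at 35.4 against 10.5 FPKM and gata3 at 6.10 against 6.04 FPKM, GFP-positive value first. Of 17 tested epidermis, ionocyte and preplacodal genes, 7 were called lower (among them atp1b1b, agr2, krt5 and cldne) and 2 higher (krt18 and krt8). Of 4 tested otic, pronephric and cloacal genes, 2 were called lower (pax2a and cldnb) and 1 higher (slc20a1a).

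Heart and endoderm genes, the setting of gata4, gata5 and gata6, had few tests. Of 25 endoderm, liver and gut rows, 2 were tested, and 13 were under 1 FPKM in both fractions. sox17, a marker of endoderm, had 0.469 FPKM with GFP and was listed at 0 without it, and foxa2 had 3.09 against 4.28 FPKM, both without a test. Both tested genes were called lower in GFP-positive cells, prox1a, at 1.88 against 19.6 FPKM, and a row named zgc:161979 (afp4 in the reference names), with 10.1 FPKM in GFP-negative cells and listed at 0 in GFP-positive cells. Of 24 heart rows, 5 were tested, with 2 called higher (tbx2b and mef2cb) and 2 lower (smyd1b and has2), and nkx2.5, which works with Gata4 in the heart, was listed at 0 in both fractions. Since these lists hold few tested genes, their counts say little of the tissues that gata4, gata5 and gata6 mark.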

How the data were processed

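Per the submitters' processing notes, the tools were Cuffdiff 2.1.1 and TopHat2 2.0.9, with Zv9 as genome build. Their settings, and whether counting used strand, are not given in the sources used here. Per the file headers, the authors deposited 1 FPKM value (fragments per kilobase of transcript, scaled by library size) per gene and fraction, with a log2 ratio, its p-value and q-value, and Cuffdiff's test score. Which libraries entered each FPKM value is not stated in the headers; the sample titles give 2 per fraction. The depth is unknown, since no read numbers were used, so no interval or detection limit is given. Coordinates are copied from the Cuffdiff loci in Zv9, and the file leaves open if starts are counted from 0 or from 1.

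From these values, ratios were turned to GFP-positive over GFP-negative; they matched the deposited FPKM within 1.5e-05 on the log2 scale. The deposited q equalled a Benjamini-Hochberg (BH) value recomputed from p over the 7299 tested genes within 5.3e-07. Shares, ranks, folds and list counts were computed with Python 3.11.15 and pandas 2.3.3, and the BH and calling code was checked on simulated p-values. A gene was called at a q under 0.05. The smallest q of any tested gene was 0.000958, which many genes share, so this value does not rank the genes that have it.

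The members and the 11 gene lists were chosen with earlier results of these data known. List symbols were matched to the table's names and, failing that, by gene ID through a reference of gene names (klf1 is klfd in the table, klf17 is klf4b). An alias of klf17 that belongs to another gene (klf4a) was dropped from the planned list. The planned rule was to name all members, a fixed set of cofactor and marker genes, and the 3 tested genes nearest to each tested member in log2(FPKM + 1). It also took up to 4 called genes per list and direction, by the largest absolute log2((FPKM + 1) ratio). Not every gene it picks is named: the globin genes and the neural and muscle genes were left out, among others. Other list genes, and the genes beside the members on the chromosome, are named outside that rule, chosen after their values were seen. Gene and protein sequences were not used here.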

Additional observations from a re-analysis of the deposited data

How the results depend on the processing

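gata1a and gata2a kept their direction under each of the 5 other scales tried, but the scales could not have reversed it. A number added to both fractions leaves the larger value larger, and the other scales shift all log2 ratios alike, by at most 0.27. The same holds for gata2b, gata5 and gata6. The log2 ratios of gata1a and gata2a ran from 5.18 to 5.62 and from 1.49 to 1.75. gata5 stayed below 0 (-1.83 to -0.90) and gata2b (0.86 to 1.88) and gata6 (0.37 to 0.64) above it, while gata3 (-0.25 to 0.01) and gata4 (-0.09 to 0.17), whose ratios are near 0, fell below it where equal sums shift all genes alike, by 0.27 with globins (gata3 and gata4) and by 0.10 without them (gata3). At a q under 0.01, 630 genes were called in all, 1 GATA gene was higher, and the genes called higher were 4 among cofactors, 1 in the epidermal list and 0 in the otic, pronephric and cloacal list. The endoderm list had 1 gene called lower with gene names in 1 row only. With symbols matched to the table's names alone, an alternative chosen after seeing the data like the cofactor count without fli1a (7), it had 1 and the blood stem cell list 0. Without gata1a, the shares of the family total were 75.9% and 49.7% for gata2a and 13.1% and 28.6% for gata3 in GFP-positive and GFP-negative cells, since the total is then smaller. The other 176 recomputed values were within 1.5 times of the reported one or kept their direction. Many of them could not have moved, so this count does not measure stability. No gene with a higher value under 3 FPKM was tested, so a minimum of 1 FPKM, with or without a new BH step, changes no call. A stricter rule also cannot raise a count of 0. No paired analysis was possible because the table gives 1 value per fraction, and for the same reason no library was left out. Depth is unknown, and Cuffdiff made no test for 5 of the 7 genes.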
